A study of Homo sapiens with 8 samples.

Results

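The collagen genes were examined as targets of DNA capture by RNA oligos in H1 cells, an established human embryonic stem cell line. H1 DNA cleared of RNA and sonicated was mixed with a biotinylated RNA oligo, pulled down on streptavidin beads, released with RNases and sequenced. Incubation for 1 h at 37 °C and fragments of 200 to 300 bp are given for every library. The groups were MEG3 TFR1 and MEG3 TFR2, a pair of RNA oligos named after the long noncoding RNA MEG3, then GATA6-AS TFR1, an oligo named after the RNA antisense to GATA6, and a control taken through the same steps with no oligo. Each group had 2 libraries from independent experiments, 8 libraries in all, and all used DNA of the same line.

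The data are 6 lists of hg38 regions, for each oligo one captured list (more signal with the oligo) and one control list (more signal with no oligo). Each region has 1 log2 ratio of oligo over no oligo, made by the authors. How the libraries of a group entered it is not stated. No value per library, read total or p-value comes with the lists. The depth and the error of a ratio are therefore unknown, no test was possible, and every comparison below is a description of these lists. All 3 oligos were set against the same no-oligo libraries, so the lists of different oligos are not independent of each other.

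A region counted as a collagen region when the authors' gene name field held a collagen symbol (COL, digits, A, digits) with no plus or minus mark behind it, on the 22 autosomes. This gave 957 of 327994 regions, 868 captured and 89 control. MEG3 TFR1 had 257 captured regions of 89739 and 15 control regions of 12649. MEG3 TFR2 had 221 captured regions of 73546 and 19 control regions of 10944. GATA6-AS TFR1 had 390 captured regions of 104786 and 55 control regions of 36330. Each of the 42 autosomal collagen genes was named at least once. The other two collagen genes of the RefSeq table, COL4A5 and COL4A6, lie on X and were left out.

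Collagens are proteins of the extracellular matrix in which 3 chains wind around each other into a triple helix. Fibrillar collagens build the fibrils of bone, skin, tendon and cartilage. Type IV collagen forms the sheet of basement membranes, fibril-associated collagens sit on fibrils, and transmembrane collagens are anchored in the cell surface. Expression was not measured, so the genes are named here only for where captured DNA lies. An RNA-DNA triplex, the structure that the oligos were designed around, is an RNA strand lying in the major groove of a DNA duplex, usually along a run of purines.

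Collagen regions made up a larger share of the captured than of the control list with each oligo. The share was 0.286% of captured and 0.119% of control regions with MEG3 TFR1, 0.300% and 0.174% with MEG3 TFR2, and 0.372% and 0.151% with GATA6-AS TFR1. There were 17.1 captured collagen regions for each control one with MEG3 TFR1, 11.6 with MEG3 TFR2 and 7.09 with GATA6-AS TFR1. Over the whole lists these ratios were 7.09, 6.72 and 2.88. The median log2 ratio of captured collagen regions was 1.46, 1.40 and 1.27 for the 3 oligos in that order, against 1.41, 1.44 and 1.34 over all captured regions. The medians of collagen regions thus lay close to those of the lists, and so did their widths, with medians of 400, 350 and 450 bp against 350, 350 and 400 bp.

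The name field counted the collagen genes unevenly, so counts by position were set beside the counts by name. By name, captured regions fell on 33 genes with MEG3 TFR1, 31 with MEG3 TFR2 and 34 with GATA6-AS TFR1. By overlap of at least 1 bp with the RefSeq gene body, they fell on 38, 40 and 39 of the 42 genes. As background, captured regions overlapped 62.6%, 59.3% and 69.9% of the 19126 autosomal protein-coding genes. Control regions overlapped 12, 18 and 25 collagen genes, with backgrounds of 21.3%, 19.4% and 40.0% of all genes. In total 297, 253 and 473 captured regions and 18, 24 and 70 control regions lay over a collagen gene.

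Of the regions over a collagen gene, 204 did not carry its name: 130 had only names with a plus or minus mark, 49 had no gene name and 25 had another plain name. COL7A1, the anchoring fibril collagen of skin, was named by 0 regions with MEG3 TFR1, 0 with MEG3 TFR2 and 15 with GATA6-AS TFR1. By position it held 10, 10 and 15 captured regions against 1, 0 and 0 control regions. With either MEG3 oligo its 10 regions carried 10 different entries in the name field. COL18A1, whose C-terminal fragment is endostatin, was named by 3, 0 and 0 captured regions but held 6, 3 and 42. The names therefore hid the COL18A1 regions of GATA6-AS TFR1, which by position are exceeded in number only by those over COL23A1 among the collagen genes. Conversely, 97.3% of the regions that carried a collagen name did overlap that gene. Counts below are by position unless they are said to be by name. Where 3 values stand in a row with no oligo beside them, they are for MEG3 TFR1, then MEG3 TFR2, then GATA6-AS TFR1.

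**Figure D1:**
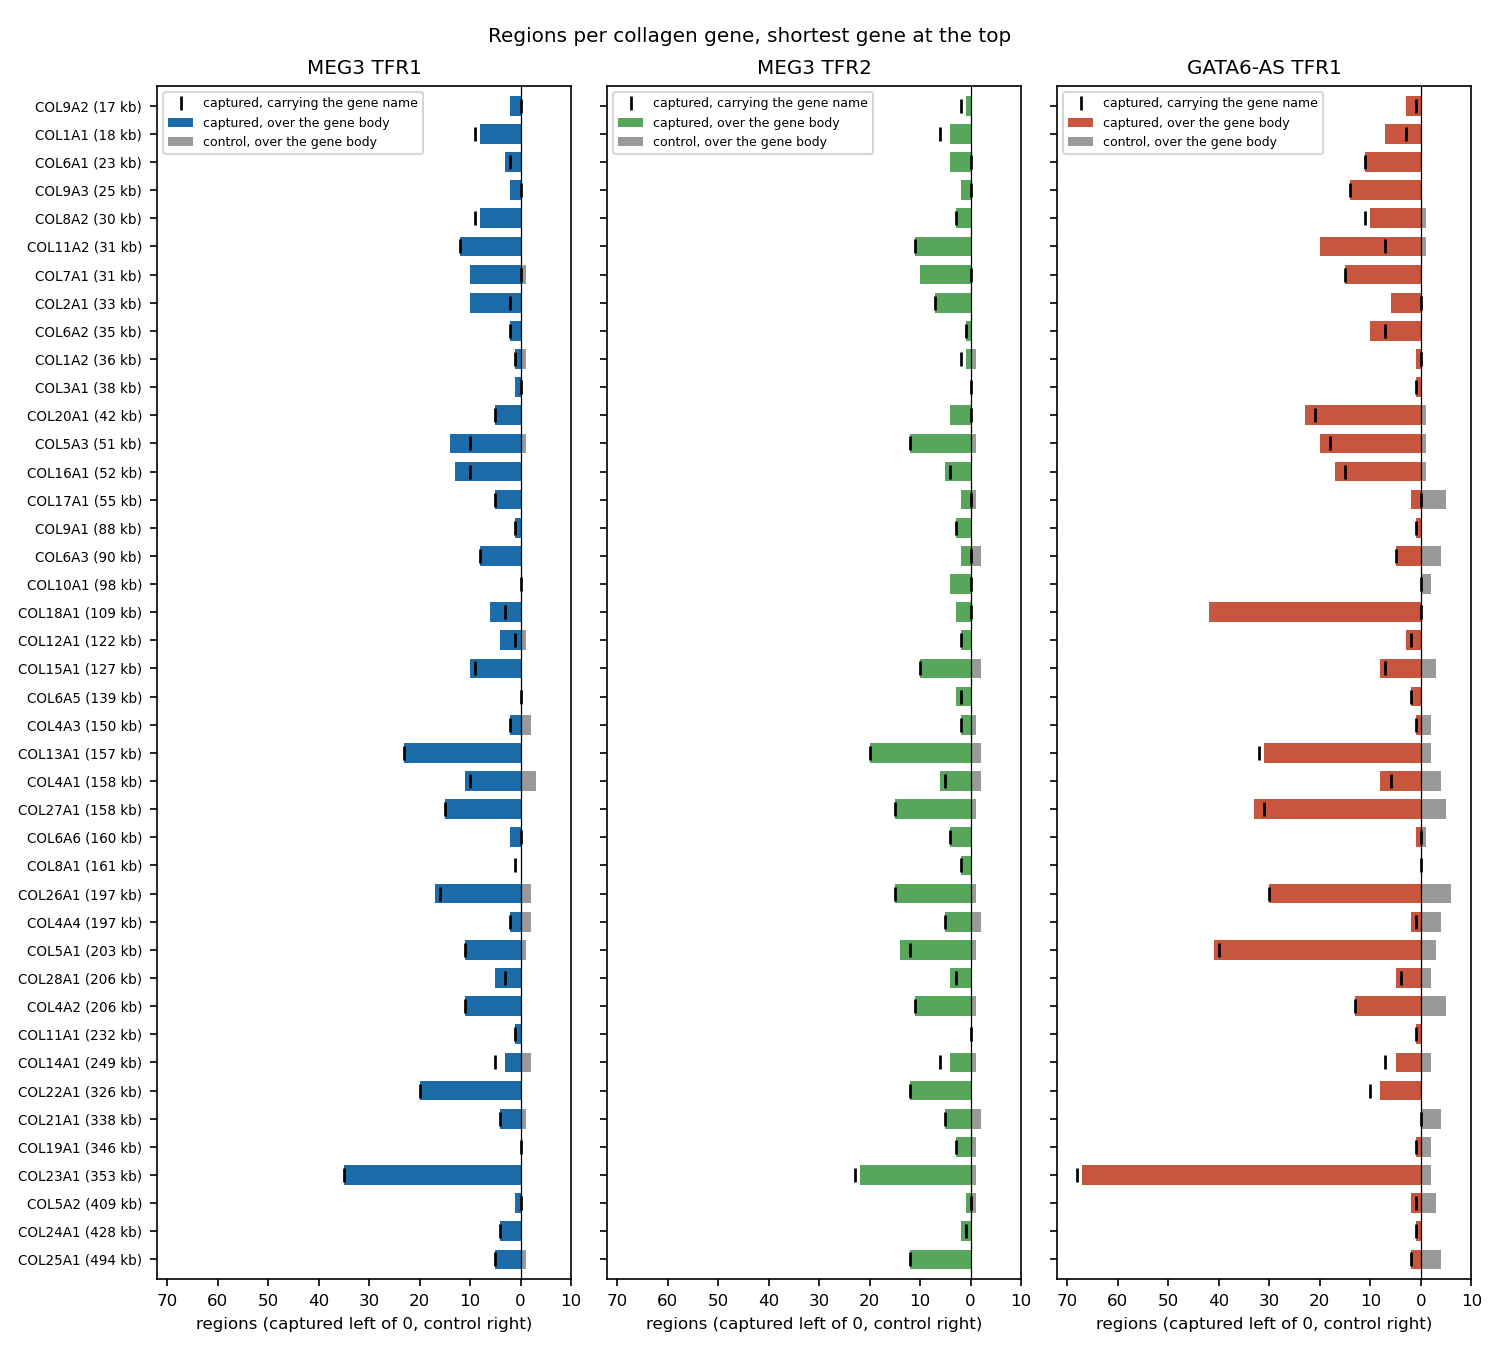
Captured regions (coloured bars, left of 0) and control regions (grey bars, right of 0) over the body of each of 42 collagen genes, for the 3 oligos, with genes ordered by length in kb. The horizontal axis counts regions, and a black tick marks the captured regions that carry the gene's own name: for COL18A1 with GATA6-AS TFR1 the bar reaches 42 and the tick stands at 0.

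Captured regions were spread unevenly over the collagen genes. COL23A1, a transmembrane collagen of 353 kb, held 35 captured regions with MEG3 TFR1, 22 with MEG3 TFR2 and 67 with GATA6-AS TFR1, against 0, 1 and 2 control regions. COL13A1, another transmembrane collagen, held 23, 20 and 31 captured regions and 0, 2 and 2 control regions. The top 5 genes held 37.0%, 34.0% and 45.2% of the captured regions over collagen genes. By name, the top 5 held 42.4%, 38.5% and 51.5%. Such shares were not computed for other sets of genes, nor set against gene length. COL25A1, the longest collagen gene at 494 kb and also a transmembrane collagen, held 5, 12 and 2 captured regions against 1, 0 and 4 control regions. COL17A1, the transmembrane collagen of hemidesmosomes, held 5, 2 and 2 captured regions against 0, 1 and 5 control regions.

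The fibrillar collagens, 11 genes, held 78, 67 and 133 captured regions and 3, 5 and 13 control regions. The genes of the 3 most abundant fibrillar chains of adult tissue differed widely in density. COL1A1, the alpha 1 chain of type I collagen, held 8, 4 and 7 captured regions in 17.5 kb, which is 45.6, 22.8 and 39.9 per 100 kb, and no control region. COL1A2, which encodes its partner chain, held 1, 1 and 1 captured regions in 36.3 kb and 1, 1 and 0 control regions. COL3A1, the type III chain of vessels and skin, held 1, 0 and 1 captured regions in 38.4 kb and no control region. COL2A1, the cartilage chain, held 10, 7 and 6 captured regions in 33.2 kb and no control region. COL1A1 and COL2A1 were therefore several times denser in captured regions than COL1A2 and COL3A1, with COL2A1 close to them in length and COL1A1 shorter.

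In COL1A1 all 3 oligos had a captured region at the higher-coordinate end of the gene, where its transcription is known to start. MEG3 TFR1 had chr17:50201251-50201900 with a log2 ratio of 1.53, MEG3 TFR2 had chr17:50201701-50202100 with 1.16, and GATA6-AS TFR1 had chr17:50201501-50204950 with 1.61. The last of these, 3450 bp wide, is the widest captured collagen region. COL2A1 likewise had a position listed with every oligo, at chr12:48004801-48005550 with GATA6-AS TFR1, where the log2 ratios were 1.78 with MEG3 TFR1, 1.56 with MEG3 TFR2 and 1.60 with GATA6-AS TFR1. In COL1A2 the single regions had log2 ratios of 1.71 with MEG3 TFR1, 1.36 with MEG3 TFR2 and 1.87 with GATA6-AS TFR1, the last of which, 1150 bp wide, overlaps the gene by 6 bp only and does not carry its name.

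Among the remaining fibrillar genes, COL11A2, a minor chain of cartilage fibrils, held 12, 11 and 20 captured regions in 30.8 kb, or 38.9, 35.7 and 64.9 per 100 kb. It held 0, 0 and 1 control regions. The captured regions covered 18.7%, 16.4% and 41.2% of the gene. COL5A3, a type V chain, held 14, 12 and 20 captured regions in 50.9 kb against 1, 1 and 1 control regions. COL5A1, the main type V chain, which regulates fibril diameter, held 11, 14 and 41 captured regions in 203 kb against 1, 1 and 3 control regions. COL27A1, a cartilage collagen, held 15, 15 and 33 captured regions in 158 kb against 0, 1 and 5 control regions. At the low end, COL5A2 held 1, 1 and 2 captured regions in 409 kb and 0, 1 and 3 control regions. COL24A1 held 4, 2 and 1 in 428 kb, and COL11A1, the other minor cartilage chain, held 1, 0 and 1 in 232 kb. COL11A1 and COL11A2 encode chains of the same type XI molecule, and their densities were 0.431, 0 and 0.431 per 100 kb for COL11A1 against 38.9, 35.7 and 64.9 for COL11A2.

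The 4 autosomal type IV genes held 26, 24 and 24 captured regions and 7, 6 and 15 control regions, and their gene pairs differed. COL4A1 and COL4A2, which encode the chains of the common basement membrane collagen, lie head to head 126 bp apart on chromosome 13 and together held 22, 17 and 21 captured regions against 3, 3 and 9 control regions. COL4A4 and COL4A3, which encode chains of the kidney filtration barrier, lie head to head 135 bp apart on chromosome 2 and together held 4, 7 and 3 captured regions against 4, 3 and 6 control regions. COL4A1 alone held 11, 6 and 8 captured and 3, 2 and 4 control regions. COL4A2 held 11, 11 and 13 captured and 0, 1 and 5 control regions. COL4A3 held 2, 2 and 1 captured and 2, 1 and 2 control regions, and COL4A4 held 2, 5 and 2 captured and 2, 2 and 4 control regions.

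The strongest control region of the family lies in COL4A3. At chr2:227304101-227304350 the authors' signal was lower with the oligo than with no oligo for all 3 oligos, with log2 ratios of -3.87 with MEG3 TFR1, -2.36 with MEG3 TFR2 and -3.01 with GATA6-AS TFR1. Signal was thus 14.7, 5.15 and 8.07 times higher with no oligo. In COL4A4, chr2:227046401-227046700 had log2 ratios of -2.44, -1.83 and -2.71, and chr2:227136801-227137450 had -1.49, -1.10 and -2.62. In COL4A1, chr13:110292401-110292750 had -1.26, -0.96 and -2.71. Control sites listed with all 3 oligos were not limited to type IV genes. In COL5A1, chr9:134748701-134749100 had -1.39, -1.66 and -1.89. COL14A1 had -1.35, -1.82 and -1.40 at chr8:120253601-120253950. COL21A1 had -1.39, -1.36 and -1.25 at chr6:56385601-56386000. In COL5A3, chr19:9994051-9994200 had -2.47 with MEG3 TFR1 and -2.03 with MEG3 TFR2. Such repeated control sites share the no-oligo libraries and are 1 observation of those libraries, not 3. No captured collagen region overlapped a control region, of its own oligo or another.

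The fibril-associated collagens, 10 genes, held 54, 41 and 75 captured regions and 4, 4 and 10 control regions. COL9A3 and COL20A1 on chromosome 20 were mainly captured with GATA6-AS TFR1. COL9A3, which encodes a chain of the type IX collagen of cartilage, held 2, 2 and 14 captured regions in 24.9 kb, and COL20A1 held 5, 4 and 23 in 41.6 kb, or 56.1 and 55.3 per 100 kb with GATA6-AS TFR1. COL9A3 held no control region and COL20A1 held 0, 0 and 1. COL22A1, found at tissue junctions such as that of muscle and tendon, ran the other way, with 20, 12 and 8 captured regions in 326 kb and no control region. COL16A1 held 13, 5 and 17 captured regions against 0, 0 and 1 control regions. COL12A1 held 4, 2 and 3 captured regions against 1, 0 and 0 control regions. COL14A1 held 3, 4 and 5 captured regions against 2, 1 and 2 control regions. COL9A1 held 1, 3 and 1, COL9A2 held 2, 1 and 3, COL19A1 held 0, 3 and 1 captured regions against 0, 1 and 2 control regions, and COL21A1 held 4, 5 and 0 captured regions against 1, 2 and 4 control regions.

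The 5 type VI genes, which form beaded microfilaments, held 15, 14 and 29 captured regions. COL6A1 held 3, 4 and 11 and COL6A2 held 2, 1 and 10, while COL6A3 held 8, 2 and 5 captured regions against 0, 2 and 4 control regions. COL6A5 held 0, 3 and 2 captured regions, and COL6A6 held 2, 4 and 1 against 0, 0 and 1 control regions. The 2 multiplexins, which carry interrupted helices and release C-terminal fragments, differed from each other: COL15A1 held 10, 10 and 8 captured regions against 0, 2 and 3 control regions, and COL18A1 held 6, 3 and 42 captured regions and no control region. In COL18A1 the GATA6-AS TFR1 regions covered 19.3% of the gene, against 1.84% with MEG3 TFR1 and 0.967% with MEG3 TFR2.

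Among the short-chain collagens, COL8A2 held 8, 3 and 10 captured regions against 0, 0 and 1 control regions. COL8A1 held 0, 2 and 0 captured regions. COL10A1, the collagen of hypertrophic cartilage, held 0, 4 and 0 captured against 0, 0 and 2 control regions. None of the 4 captured regions over COL10A1 carried its name, and it was the only gene of the 42 with no captured region by name. Among the others, COL26A1 held 17, 15 and 30 captured regions in 197 kb against 2, 1 and 6 control regions. COL28A1 held 5, 4 and 5 captured regions against 0, 0 and 2 control regions. By name, the genes with control but no captured regions were COL7A1 with MEG3 TFR1, COL17A1 and COL6A3 with MEG3 TFR2, and COL10A1, COL17A1, COL21A1 and COL6A6 with GATA6-AS TFR1. By position only COL10A1 and COL21A1, both with GATA6-AS TFR1, had control and no captured regions.

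The oligos differed in where they captured collagen DNA. GATA6-AS TFR1 had more captured regions than either MEG3 oligo over 19 of the 42 genes and fewer than either over 8. MEG3 TFR2 had the most over 9 genes and the fewest over 18, and MEG3 TFR1 had the most over 8 and the fewest over 5. By position, 35 of the 42 genes held a captured region with all 3 oligos, beside a background of 44.7% of all genes, 5 with a pair of them and 2 with a single oligo. It was 11 of 12 genes under 50 kb, beside a background of 32.6%. For 50 to under 150 kb it was 8 of 10 genes, beside 63.0%, and for 150 kb or more 16 of 20, beside 87.6%. Within these classes the collagen genes and all genes are not matched in length. The captured list of GATA6-AS TFR1 is also the longest, so part of any excess in counts goes with list length. How the libraries of one oligo agree cannot be read from these lists.

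**Figure D2:**
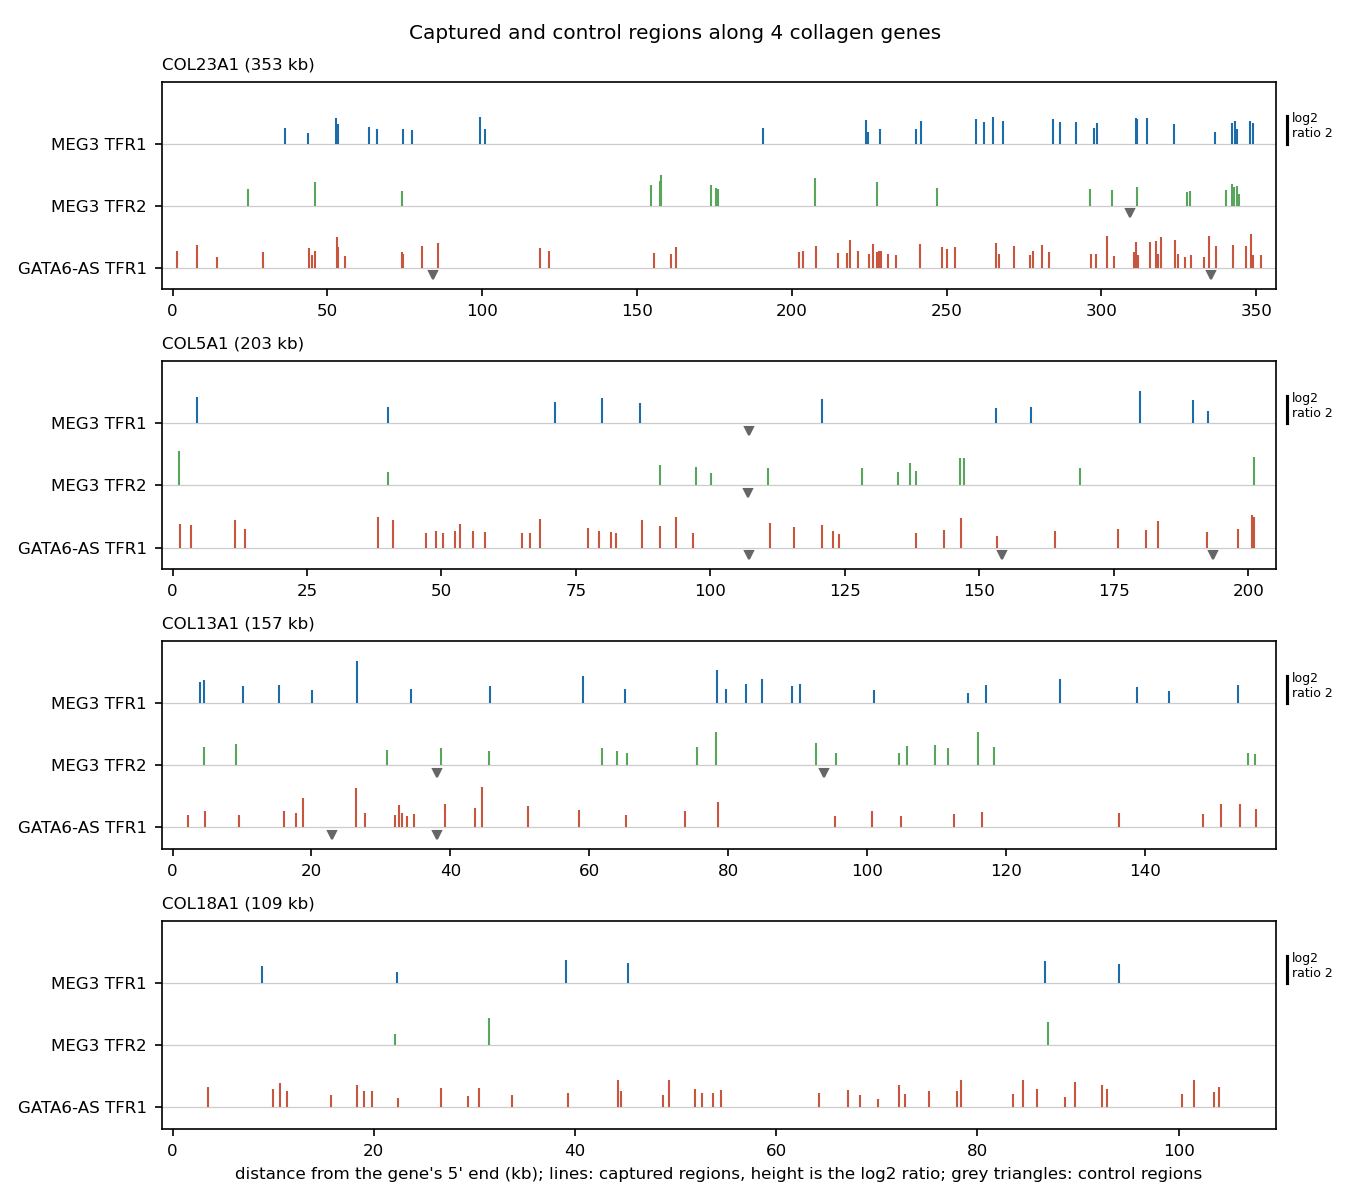
Captured regions (vertical lines, height proportional to the log2 ratio; the bar at the right marks a log2 ratio of 2) and control regions (grey triangles) along COL23A1, COL5A1, COL13A1 and COL18A1. The horizontal axis is the distance in kb from the 5′ end of each gene, and the 42 GATA6-AS TFR1 regions run along the whole of COL18A1 while MEG3 TFR1 has 6 and MEG3 TFR2 has 3.

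The number of captured regions was less correlated with gene length across the collagen genes than across all genes, which span a wider range of lengths. Collagen genes are long, with a median of 133 kb and a range of 16.8 to 494 kb, against a median of 24.5 kb over all autosomal protein-coding genes. Across the 42 collagen genes, Spearman's rho between length and the number of captured regions by name was 0.18 with MEG3 TFR1, 0.33 with MEG3 TFR2 and -0.05 with GATA6-AS TFR1. By position it was 0.013, 0.23 and -0.22. Across all 19126 genes, of 0.051 to 2474 kb, it was 0.54, 0.56 and 0.43. A rho over all genes within the range of the collagen genes was not computed. These are correlations across genes of the same libraries, and genes are not independent replicates.

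The shorter collagen genes were the denser ones. Among the 12 collagen genes under 50 kb, the median density was 12.5, 9.81 and 36.6 captured regions per 100 kb. Over all genes under 50 kb it was 2.69, 0 and 6.58. Those genes go down to 0.051 kb, while the shortest collagen gene has 16.8 kb, so these sets are not matched in length. The shares of genes with a region in this class carry the same limit. Summed over the class, the densities were 17.8, 13.4 and 33.7 per 100 kb in the collagen genes and 7.76, 6.24 and 12.9 in all genes. Of these 12 genes, 12, 11 and 12 held a captured region, with backgrounds of 52.3%, 47.7% and 62.3%. Among the 10 genes of 50 to under 150 kb the medians were 6.70, 3.54 and 4.60 per 100 kb, against 2.72, 2.22 and 3.00 over all genes. There 8, 10 and 9 genes held a captured region, with backgrounds of 80.4%, 79.5% and 82.6%.

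The 20 collagen genes of 150 kb or more were near the background in the share of genes with a captured region. Captured regions lay over 18, 19 and 18 of them, with backgrounds of 94.2%, 95.1% and 94.6%, and the median densities were 1.29, 2.46 and 1.51 per 100 kb against 2.06, 1.90 and 1.74 over all genes of that length. Summed over their whole length, these 20 genes still held 3.35, 3.10 and 4.91 captured regions per 100 kb, against 2.70, 2.31 and 2.63 for all such genes, and COL23A1 alone held 35, 22 and 67 of the regions. Control regions lay over 8, 13 and 16 of these 20 genes, with backgrounds of 64.6%, 58.8% and 89.8%. For the 12 shortest genes the control counts were 2, 1 and 3, with backgrounds of 10.2%, 9.13% and 23.6%. For the middle class they were 2, 4 and 6, with backgrounds of 36.3%, 33.5% and 69.3%.

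**Figure D3:**
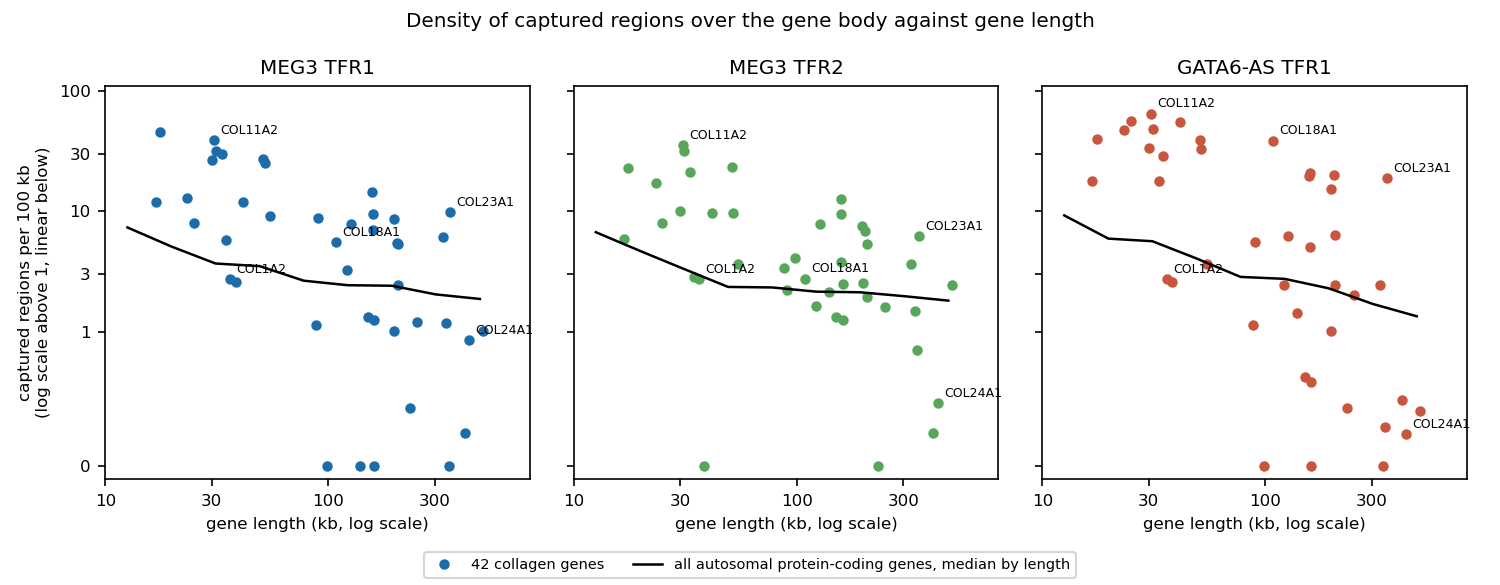
Captured regions per 100 kb of gene body (vertical axis, log scale above 1 and linear below) against gene length in kb (log scale) for 42 collagen genes (points) and the median of all autosomal protein-coding genes in bins of length (line), for each oligo. Short genes varied: COL11A2 lies above the line, while COL1A2 had 2.75 per 100 kb with each oligo. Genes of 150 kb or more lie on both sides of the line, COL23A1 above and COL24A1 below.

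Captured density inside the collagen genes was set against that of their surroundings, with each region counted once by its midpoint, so that values inside can differ slightly from those by overlap. Within 250 kb on each side, the median density was 4.4, 3.4 and 3.9 captured regions per 100 kb, against 5.64, 3.67 and 5.30 inside the genes. Other genes were not removed from the flanks. The flank of COL4A1 therefore holds COL4A2, and flanks of other neighbouring collagen genes hold part or all of each other. COL9A3 and COL20A1, dense with GATA6-AS TFR1, had flanks of 25.8 and 34.4 per 100 kb with that oligo, the densest 2 among the 42. COL18A1 had 38.7 inside and 14.4 in its flanks. COL3A1 had 0.2 per 100 kb in its flanks with each oligo, so that its few regions lie in DNA that is nearly empty.

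The genes were nonetheless more often denser than their flanks than other genes were. This was so for 28 of 42 collagen genes with MEG3 TFR1, 30 with MEG3 TFR2 and 28 with GATA6-AS TFR1, or 66.7%, 71.4% and 66.7%, against 38.3%, 37.7% and 43.1% of all genes. Genes with no region count as less dense here, and they are mostly short. COL11A2 had 64.9 per 100 kb inside and 17.2 in its flanks with GATA6-AS TFR1. COL23A1 had 19.0 inside and 6.6 outside with GATA6-AS TFR1, and COL22A1 had 6.1 inside and 1.2 outside with MEG3 TFR1. COL26A1 was among the exceptions, with 14.7 inside and 21.6 outside with GATA6-AS TFR1.

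**Figure D4:**
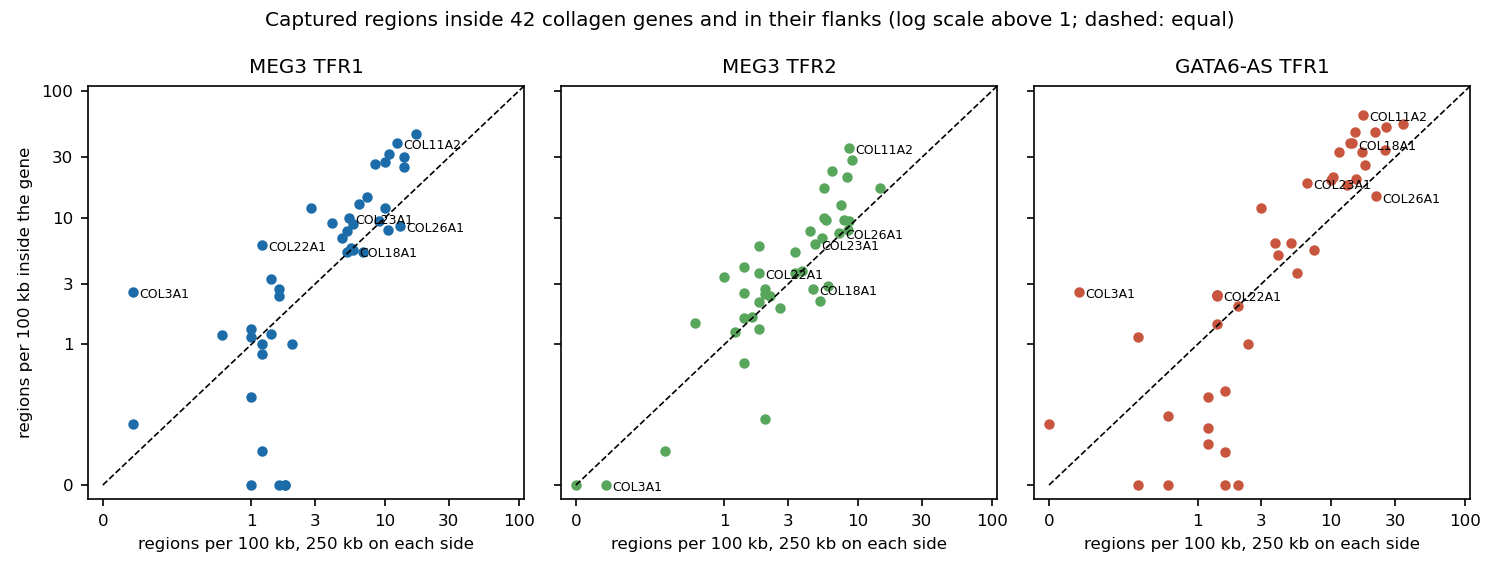
Captured regions per 100 kb inside each of 42 collagen genes (vertical axis) against the density in the 250 kb on each side (horizontal axis), for each oligo, on scales that are logarithmic above 1 and linear below; the dashed line marks equality. Points above the line, 28, 30 and 28 of 42, are denser inside than outside.

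Collagen genes that neighbour each other can be counted together. COL6A1 and COL6A2, 93.1 kb apart on chromosome 21, together held 5, 5 and 21 captured regions and no control region. COL3A1 and COL5A2, 19.2 kb apart on chromosome 2, together held 2, 1 and 3 captured regions and 0, 1 and 3 control regions. COL6A5 and COL6A6, 31.9 kb apart on chromosome 3, held 2, 7 and 3 captured regions and 0, 0 and 1 control regions. COL19A1 and COL9A1, 2.59 kb apart on chromosome 6, held 1, 6 and 2 captured regions and 0, 1 and 2 control regions.

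Captured regions ran over the whole of the genes and were not gathered at the 5′ end. For the 30 genes whose strand the promoter table gives, the 5 equal parts of the gene from 5′ to 3′ held 20.2%, 19.8%, 16.1%, 19.0% and 24.8% of the captured regions with MEG3 TFR1. With MEG3 TFR2 they held 17.8%, 18.3%, 18.8%, 21.6% and 23.6%, and with GATA6-AS TFR1 19.0%, 19.5%, 15.6%, 21.0% and 24.9%. The last part held the largest share with every oligo, and the margin over the first was under 6 percentage points. The same shares were not computed over all genes.

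Of the 30 genes with a listed start, 0, 1 and 3 had a captured region over one. The share over all genes was not computed, and COL1A1 is not among these 30 genes. COL11A1, COL11A2 and COL27A1 had a region over a listed start with GATA6-AS TFR1, and COL9A1 had one with MEG3 TFR2. The 2 whose region covers the start at the gene's 5′ end and whose upstream DNA holds a long run of one base class are shown here, since such runs are the kind of DNA on which triplexes are known to form. The 250 bases before the start are from RefSeq on GRCh38.p14, on the gene's minus strand, and capitals mark purine or pyrimidine runs of at least 12 bases.
COL11A1: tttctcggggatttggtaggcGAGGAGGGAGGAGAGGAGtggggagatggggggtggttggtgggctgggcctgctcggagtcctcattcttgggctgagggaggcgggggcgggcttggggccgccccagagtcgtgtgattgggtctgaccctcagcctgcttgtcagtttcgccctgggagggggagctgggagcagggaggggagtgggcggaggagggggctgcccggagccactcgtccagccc
COL9A1: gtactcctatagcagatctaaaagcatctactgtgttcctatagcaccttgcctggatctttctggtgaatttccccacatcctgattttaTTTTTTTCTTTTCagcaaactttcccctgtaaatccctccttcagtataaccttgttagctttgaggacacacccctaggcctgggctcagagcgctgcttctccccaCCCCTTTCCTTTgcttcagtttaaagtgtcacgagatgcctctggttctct

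The COL11A1 sequence lies at chr1:103108523-103108772 and holds a purine run of 18 bases. The GATA6-AS TFR1 region chr1:103108251-103108750 has a ratio of 2.06 and covers 228 of the 250 bases, among them 17 of the run. It is the only captured region over COL11A1 with this oligo. The COL9A1 sequence lies at chr6:70303085-70303334, and the MEG3 TFR2 region chr6:70302801-70303200 has a ratio of 2.11 and covers 116 of the 250 bases. Its pyrimidine run of 12 bases lies inside that region and its run of 13 bases lies outside it. Among 41 listed promoters of 30 collagen genes, 28 (68.3%) hold a run of at least 12 purines or pyrimidines, against 40.0% of 33725 autosomal promoters. GAGAGA or TCTCTC, searched on both strands, is in 9 of the 41 (21.95%) and in 18.5% of all. Some genes enter with more than 1 promoter, such as COL5A1 with 2 that nearly coincide. Counted by gene, 24 of the 30 collagen genes hold such a run, against 43.9% of all genes. GAGAGA or TCTCTC is in 8 of the 30, against 21.8%. The median GC content was 64.4% in the collagen promoters and 58.4% in all. The 33725 promoters belong to 26246 genes, a wider set than the 19126 protein-coding genes used as background elsewhere. These contrasts were not computed for promoters of protein-coding genes alone. These are descriptions of the sequence, and the letters of the oligos were not used here. No region sequence could be read, as no genome was used.

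The highest ratios among the collagen regions differed between the oligos. With MEG3 TFR1 they were 10.9-fold in COL22A1 at chr8:138766351-138766750, 8.60-fold in COL13A1 at chr10:69828351-69828550 and 7.00-fold in COL17A1 at chr10:104038451-104038650. With MEG3 TFR2 they were 9.56-fold in COL27A1 at chr9:114310851-114311050, 8.50-fold in COL4A2 at chr13:110413101-110413350 and 7.73-fold in COL25A1 at chr4:108850401-108850700. With GATA6-AS TFR1 they were 10.0-fold in COL14A1 at chr8:120235301-120235600, 9.25-fold at chr8:138914351-138914600, 310 bp outside COL22A1, and 7.62-fold in COL13A1 at chr10:69846251-69846600. The COL13A1 region of MEG3 TFR1 overlaps one of GATA6-AS TFR1, chr10:69828151-69828500, with 7.30-fold. Among regions within 1 kb outside a collagen gene, the highest ratio was not in a counted region: 19.1-fold with GATA6-AS TFR1 at chr9:114153701-114154000, 98 bp before COL27A1, where the name field holds that symbol with a plus mark.

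Genes for proteins that make and bind collagen were counted in the same way. Of 28 genes of collagen modification and assembly, 26, 23 and 26 held a captured region and 8, 2 and 12 a control region, beside backgrounds of 62.6%, 59.3% and 69.9% captured and 21.3%, 19.4% and 40.0% control. ADAMTS2, which removes the N-terminal propeptide of procollagen, held 19, 12 and 43 captured regions. BMP1, which removes the C-terminal one, held 11, 7 and 20, and LOX, which cross-links fibrils, held 0, 0 and 2. SERPINH1, the collagen chaperone of the endoplasmic reticulum, held 1, 2 and 5.

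Of 9 collagen receptor genes, 9, 7 and 9 held a captured region and 2, 1 and 4 a control region, beside the same backgrounds. Those backgrounds cover genes of all lengths, with a median of 24.5 kb, while the median receptor gene is 57.9 kb long. The shares for genes of 50 to under 150 kb, given below, are higher. ITGA11, the alpha 11 integrin chain, held 27, 17 and 25 captured regions in 135632 bp, while ITGA2 held 1, 0 and 1 in 105428 bp and DDR1, a receptor tyrosine kinase, held 6, 4 and 7 in 19187 bp. Of the 12 laminins, the other large basement membrane family, 11, 12 and 11 genes held a captured region and 4, 4 and 8 a control region. The median laminin gene is 102 kb long, and among all genes of 50 to under 150 kb captured regions lay over 80.4%, 79.5% and 82.6%. Control regions lay over 36.3%, 33.5% and 69.3% of all genes of that length. LAMA5 held 4, 6 and 28 captured regions and LAMA2, the longest at 633429 bp, held 5, 4 and 5. The median density over the laminins was 3.94, 4.51 and 2.74 per 100 kb, against 5.64, 3.67 and 5.30 over the collagen genes. Over the modification and assembly genes it was 9.88, 5.46 and 17.2, above the collagen genes with every oligo. The receptor genes had 8.14, 4.47 and 5.18, above the collagen genes with both MEG3 oligos only. The median modification and assembly gene is 30.6 kb long, against 133 kb for the collagen genes. These densities were not matched for length.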

How the data were processed

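The submitters' processing notes name FastQC, BWA 0.7.15-r1140 and the build hg38. How regions were called and libraries scaled is not stated in the sources, and the input was not analysed here. The authors deposited 6 region lists with 1 log2 ratio per region. The log2 base was read from the values: raising 2 to them gave ratios of whole numbers (denominators up to 400) for 98.2% to 99.96% of each list. Members and gene lists were chosen with earlier results of these data known. Genes, starts and sequences came from RefSeq on GRCh38.p14, positions are 1-based, and regions counted over a gene with an overlap of at least 1 bp. The genes named were COL1A1, COL1A2, COL2A1, COL3A1 and the autosomal type IV genes, and for each oligo those with the most captured regions, the most per 100 kb (from 3 regions), the highest log2 ratio and the most control regions. Every other collagen gene is given by its counts. Counting was tested on simulated lists, where all 1596 planted regions over 42 genes were found. Python 3.11.15 with numpy 2.4.6, pandas 2.3.3, scipy 1.17.1 and matplotlib 3.10.9 was used.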

Additional observations from a re-analysis of the deposited data

How the results depend on the processing

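Of 129 values obtained for 18 results under other settings, 95 stayed within 1.5 times the reported value (within 0.1 for rho) and 34 did not; none was a test. The 3 values of each set below are for MEG3 TFR1, then MEG3 TFR2, then GATA6-AS TFR1, by name, unless an oligo is named. Requiring an absolute log2 ratio of 1.5 or more left 116, 95 and 132 captured and 8, 6 and 25 control regions, 7 genes (MEG3 TFR1) and 6 genes (MEG3 TFR2) with control regions, medians of 1.39, 0.812 and 0.795 captured regions per 100 kb and a rho with length of -0.17 (GATA6-AS TFR1). Keeping the 50% largest ratios left 137, 105 and 174 captured and 8, 6 and 24 control regions, 7 (MEG3 TFR1) and 6 (MEG3 TFR2) control genes, medians of 0.941 (MEG3 TFR2) and 1.51 (GATA6-AS TFR1), and a rho of -0.17 (GATA6-AS TFR1). Fewer regions enter both settings by construction. Counting by gene body gave medians of 5.64 (MEG3 TFR1) and 5.30 (GATA6-AS TFR1) and rho of 0.013 (MEG3 TFR1) and -0.22 (GATA6-AS TFR1). Adding 5 kb to each side gave medians of 6.18, 4.48 and 5.53 and rho of -0.075, 0.094 and -0.27, so the sign of rho with MEG3 TFR1 depends on this choice. Counting names with a plus or minus mark too, chosen after seeing the data, gave a median of 5.55 (MEG3 TFR1). Joining regions within 200 bp, keeping regions with collagen names only, and leaving out COL25A1 and COL24A1, the genes farthest from the median length, moved none of the values they were run on. No paired analysis was possible because the lists give no value per library, and for the same reason no library could be left out. Depth is unknown, the error of a ratio is unknown, and the fit of gene names to regions rests on the authors' name field.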
